A study of Mus musculus with 20 samples.

Results

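Prostaglandins and leukotrienes are lipid mediators made from arachidonic acid, and 10 genes of their synthesis and reception were followed in mouse bone marrow-derived macrophages (BMDMs). They are Pla2g4a, Ptgs1, Ptgs2, Ptges, Hpgds, Alox5, Alox5ap, Ptger2, Ptger4 and Ptgir, chosen by symbol from the 21963 gene entries of the count table. Each symbol had 1 entry, and all 10 were among the 11707 genes that passed the filter on low counts and were tested. RNA was sequenced in 20 libraries of 5 groups: 4 WT untreated, 5 WT with zymosan for 3 h, 4 WT loaded with BAPTA-AM and given zymosan, 4 Mcu-/- untreated and 3 Mcu-/- with zymosan for 3 h. The last are numbered 1 to 3 in the labels and 3 to 5 in the columns of the count table; which column is which sample is not known, and the column numbers are used here. Zymosan is a preparation of yeast cell wall, given at 2 particles per cell, and BAPTA-AM is a cell-permeant Ca2+ chelator, used at 10 µM. Mcu encodes the pore of the mitochondrial Ca2+ uniporter, and the Mcu-/- macrophages came from mice with a floxed Mcu and Cre driven from Cx3cr1, a gene of the monocyte lineage. The mice were 15 to 25 weeks old, and every group was grown from bone marrow in L929-conditioned medium and used 9 to 14 days after harvest. There was no BAPTA-AM group without zymosan and none in Mcu-/- macrophages.

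Arachidonic acid is cut from membrane phospholipids by cytosolic phospholipase A2, which binds membranes when cytosolic Ca2+ rises. The cyclooxygenases COX-1 (Ptgs1) and COX-2 (Ptgs2) turn it into prostaglandin H2, from which terminal synthases make PGE2 (Ptges), PGD2 (Hpgds), prostacyclin or thromboxane. On the other branch 5-lipoxygenase (Alox5), also activated by Ca2+, works with its membrane partner FLAP (Alox5ap) to begin the leukotrienes. PGE2 acts through receptors that include EP2 (Ptger2) and EP4 (Ptger4), and prostacyclin through IP (Ptgir), and each of these receptors raises cAMP. In macrophages COX-1 is the form present at rest, and COX-2 and the inducible PGE2 synthase are the forms made on microbial stimulation.

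The total count on genes ran from 14.4 to 24 M per library and levels are given as CPM, the count scaled to a library size corrected by TMM. Mcu was at 2.63 to 4.05 CPM in the 7 Mcu-/- libraries and at 6.1 to 9.55 CPM in the 13 WT libraries, without overlap. The library labelled untreated Mcu-/- replicate 4 stood apart from replicates 1 to 3, and whether it is what its label says could not be settled from these files: its Mcu, at 4.05 CPM, was in the range of the Mcu-/- libraries, and its Ptgs2, at 4.48 CPM, was between the other untreated libraries (at most 1.14 CPM) and those with zymosan (at least 137 CPM). It is called untreated replicate 4 below after its label, and the biological coefficient of variation over all genes was 12.4% with it and 3.56% without it. The 7 macrophage markers summed to 13123 to 15278 CPM in the 13 WT libraries and to 14183 to 14537 CPM in untreated Mcu-/- replicates 1 to 3, but to 8359 CPM in replicate 4 and to 9076 to 9344 CPM in the 3 Mcu-/- libraries with zymosan. The sum was lower through Lyz2 (2823 CPM in replicate 4, 7824 to 8390 CPM in replicates 1 to 3), Adgre1 and Itgam. Cd68, Fcgr1 (518 against 118 CPM), Csf1r and Mertk went the other way. These 4 were higher in replicate 4 than in replicates 1 to 3, and in Mcu-/- than in WT with zymosan. The 4 stromal markers summed to 25.3 CPM in replicate 4 and to 40.5 to 49.3 CPM in the Mcu-/- zymosan libraries, against 0.621 to 5 CPM in all others; nearly all of it was collagen (Col1a1 and Col1a2), and Dcn and Pdgfra were under 0.4 CPM in every library. Summed markers of neutrophils, of mast cells, of eosinophils and basophils, of T and B cells, of dendritic cells and of megakaryocytes were each between 0.073 and 11.5 CPM in every library. Within these lists Ly6g, Mpo, Cpa3, Fcer1a and Siglech stayed under 0.12 CPM, while Hdc and Xcr1 made up most of the rise with zymosan of the mast cell and dendritic cell sums. A shared change of the culture and the genotype cannot be told apart in the Mcu-/- zymosan group, so the members' values in that group are given with those of untreated replicate 4, and in bulk RNA fewer cells of a type and less RNA per cell cannot be told apart either.

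Within 3 h of zymosan, WT macrophages had more RNA for COX-2, for the inducible PGE2 synthase and for the EP4 receptor, and less for COX-1 and for the prostacyclin receptor. Of the 10 genes 5 rose (Ptgs2, Ptges, Ptger4, Hpgds and, with TMM scaling but not with library totals, Pla2g4a) and 3 fell (Ptgs1, Ptgir and Alox5ap), where 32.4% of all tested genes rose and 36.8% fell. Mcu-/- macrophages with zymosan had higher RNA than WT with zymosan for 6 (Ptgs2, Ptges, Ptgir, Ptger2, Alox5ap and Pla2g4a) and lower for 3 (Ptgs1, Alox5 and Hpgds), where 31.8% and 30.3% of all genes were called. In Mcu-/- against WT with zymosan only 4 members were higher without Mcu-/- zymosan replicate 3, and likewise without replicate 4. With all libraries, the members' share was above the background for the higher calls in both comparisons. For the lower calls it was below the background with zymosan in WT and equal to it in Mcu-/- against WT. With 10 genes picked by name this is a description only. In the fit of all libraries BAPTA-AM lowered Ptger4 and Pla2g4a and raised none, against 6.33% of all genes lower and 6.43% higher. The call of Pla2g4a was lost in several alternatives. Without untreated Mcu-/- replicate 4, Ptges was called higher and Ptgs2, Pla2g4a, Ptger2 and Ptger4 lower, beside 15.3% and 16.5% of all genes. Without zymosan no member differed between Mcu-/- and WT by edgeR's quasi-likelihood test, from which all adjusted p-values here come, where 0.128% of genes were higher and 0.222% lower; the lowest adjusted p among the 10 was 0.221, and 0 of them were called when replicate 4 was left out, where 1.53% and 1.83% of genes were called.

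The 250 bases before the start of Ptgs2 and Ptges, which rose together, and of Ptgs1, which fell, are shown from RefSeq (GRCm38.p6) so that the DNA next to the annotated starts can be read beside the values. The Ptges start used by RefSeq lies inside the longer span that GENCODE gives this gene. Capitals mark matches, on either strand, to the motifs searched: a cAMP response element core (TGACGT), E-box (CACGTG), AP-1 (TGANTCA), GC box (GGGCGG), the motif of the TATA box (TATAAA), C/EBP (TTGCNNAA) and, by name alone, NF-kB.
Ptgs2, chr1:150099781-150100030, plus strand: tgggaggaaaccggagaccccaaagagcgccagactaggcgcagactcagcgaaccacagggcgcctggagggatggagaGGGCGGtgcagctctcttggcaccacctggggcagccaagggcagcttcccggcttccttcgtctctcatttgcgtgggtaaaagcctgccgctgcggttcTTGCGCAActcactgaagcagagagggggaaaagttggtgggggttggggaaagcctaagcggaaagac
Ptges, chr2:30903298-30903547, minus strand: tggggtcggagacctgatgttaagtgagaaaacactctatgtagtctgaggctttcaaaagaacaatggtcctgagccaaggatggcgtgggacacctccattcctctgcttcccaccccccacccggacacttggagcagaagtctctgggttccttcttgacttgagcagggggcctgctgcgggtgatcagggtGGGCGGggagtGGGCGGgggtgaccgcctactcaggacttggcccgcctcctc
Ptgs1, chr2:36230176-36230425, plus strand: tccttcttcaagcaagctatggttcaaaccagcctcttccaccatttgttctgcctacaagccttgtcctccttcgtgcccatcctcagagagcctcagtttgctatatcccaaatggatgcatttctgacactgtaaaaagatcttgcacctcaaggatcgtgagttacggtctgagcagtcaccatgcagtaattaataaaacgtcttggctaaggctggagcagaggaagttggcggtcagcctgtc

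The Ptgs2 window held 1 C/EBP match, from 69 to 62 bases before the start, and 1 GC box. Its C/EBP letters were found in 9.56% of all 32851 windows of this length. The Ptges window held 2 GC boxes, which 32.7% of all windows had at least 1 of, and the Ptgs1 window held no match to any of the 7 motifs. Windows were found for 9 of the 10 genes, 10 in all since Pla2g4a had 2, and none for Alox5ap. GC boxes stood in those of Alox5, Ptger4, Ptges, Ptgir and Ptgs2, a C/EBP match in Hpgds and Ptgs2, and a TATA match in 1 Pla2g4a window. The cAMP response element core, the E-box, AP-1 and NF-kB were in none of the 10, beside 6.47%, 6.02%, 6.75% and 7.25% of all windows; no match says only that these letters are not in these 250 bases.

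**Figure D1:**
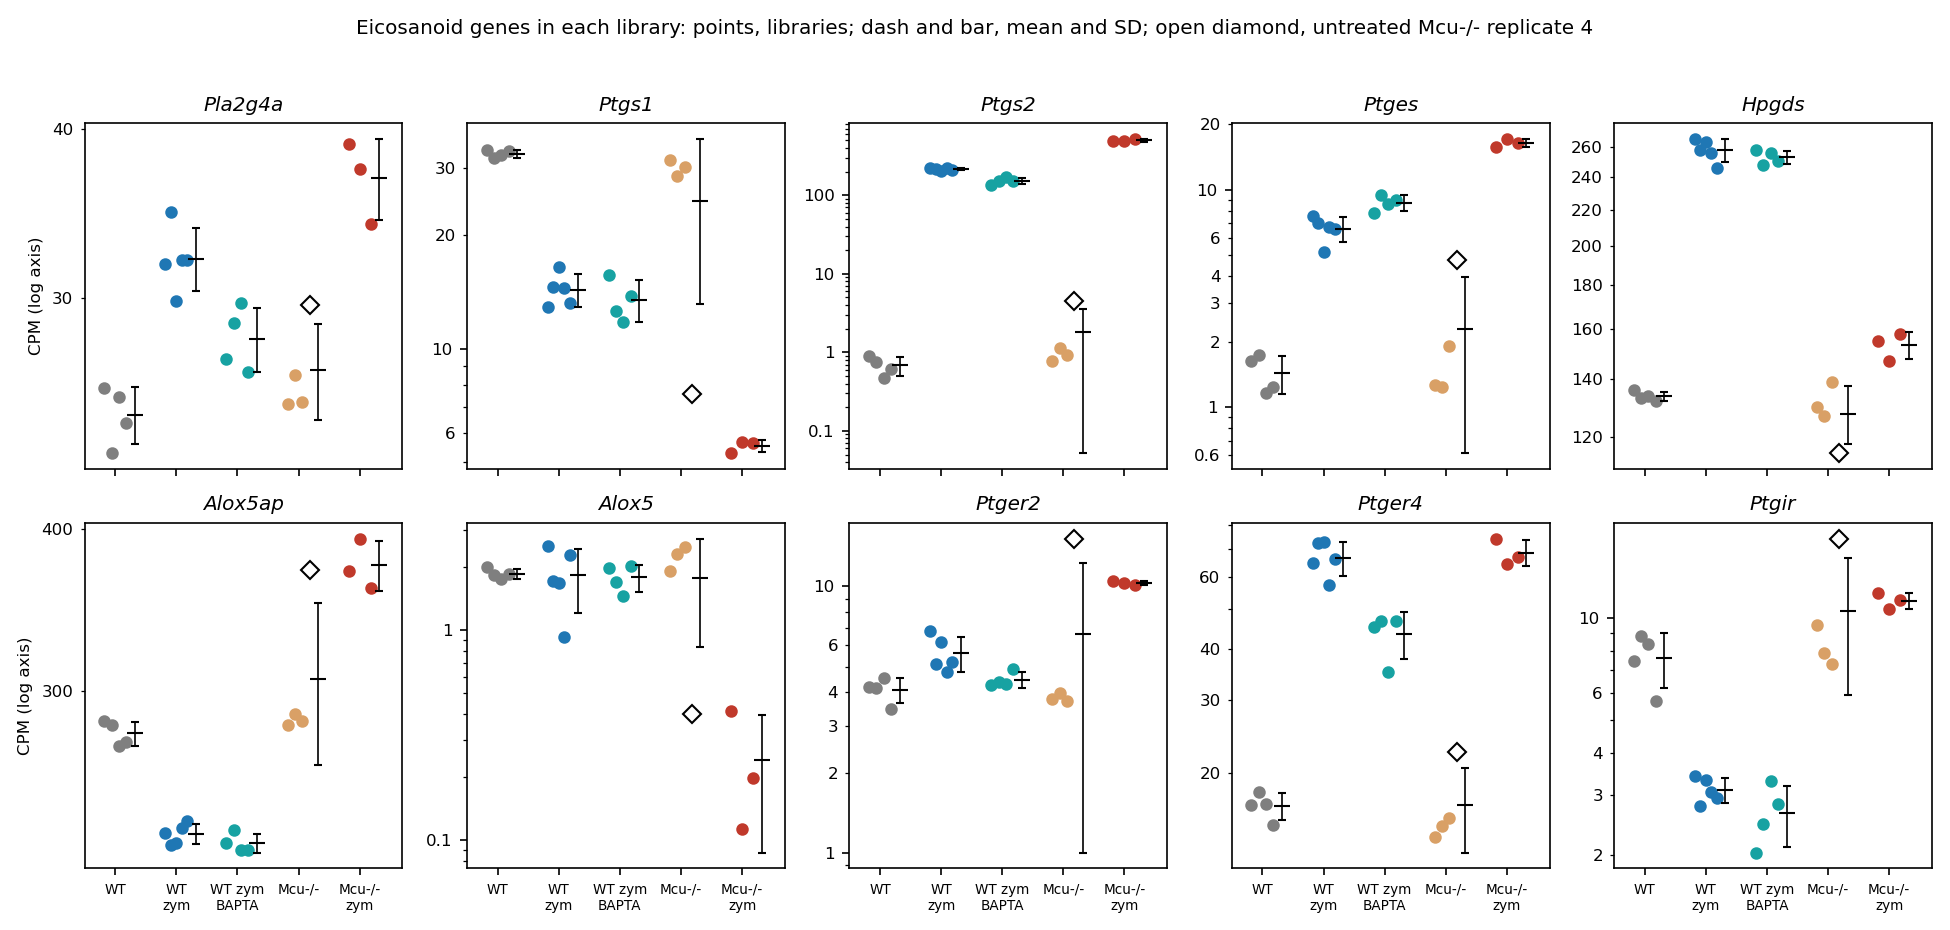
CPM of the 10 genes (log axis, a scale of its own in each panel) in every library of the 5 groups, with the mean and SD of each group beside the points. Ptgs2 ran from 0.471 to 0.895 CPM in untreated WT and from 488 to 523 CPM in Mcu-/- with zymosan. The open diamond, untreated Mcu-/- replicate 4, lay outside the range of replicates 1 to 3 for all 10 genes, a share not counted over all genes.

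Pla2g4a (ENSMUSG00000056220, chromosome 1 of mm10 from 149829618 to 149961290) encodes cytosolic phospholipase A2 and lies 139 kb from Ptgs2, with 3 annotated genes between them. It had 25.7, 23, 25.3 and 24.2 CPM in untreated WT and 31.8, 34.7, 29.8, 32 and 32 CPM with zymosan. With BAPTA-AM and zymosan it had 27, 28.7, 29.7 and 26.4 CPM. Zymosan raised it without overlap between the groups, and the BAPTA-AM libraries lay just under the lowest WT zymosan library. The log2 fold change with zymosan was 0.39 (SE 0.061, adjusted p = 1.61e-05), but it was −0.11 when library totals replaced TMM scaling, a choice that moved the median of all genes in this comparison from −0.044 to −0.54. With BAPTA-AM the log2 fold change was −0.20 (SE 0.061, adjusted p = 0.0387), and over the alternatives the adjusted p ran from 0.00335 to 0.122. That call was lost without any 1 of WT zymosan replicates 1, 2, 4 and 5 or of BAPTA-AM replicates 1, 2 and 4. Mcu-/- macrophages had 39, 37.4 and 34 CPM with zymosan, of which the lowest lay inside the WT zymosan range. Untreated Mcu-/- libraries had 25, 26.3 and 25.1 CPM in replicates 1 to 3 and 29.6 CPM in replicate 4. The log2 difference from WT was 0.20 (SE 0.066, adjusted p = 0.0142), and it missed the threshold without Mcu-/- zymosan replicate 3 (adjusted p = 0.0884) or replicate 4 (adjusted p = 0.0502).

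Ptgs2 (ENSMUSG00000032487, chromosome 1 from 150100031 to 150108227) had the largest response of the 10. It had 0.895, 0.763, 0.471 and 0.617 CPM in untreated WT, which is 11 to 21 counts per library. With zymosan it had 222, 216, 207, 226 and 209 CPM in WT. The rise was 310-fold (log2 8.28, SE 0.36, adjusted p = 1.66e-13), and no other member moved by more than 4.55-fold in WT. With BAPTA-AM and zymosan COX-2 RNA was 137, 152, 170 and 152 CPM, every library below every WT library without the chelator. That difference, a log2 of −0.50 (SE 0.22), did not pass in the fit of all libraries (adjusted p = 0.159), but it passed with untreated Mcu-/- replicate 4 left out (adjusted p = 1.26e-12) and when the groups compared were fitted alone (adjusted p = 5.36e-09). The exact two-sided permutation test of those 9 libraries gave p = 0.00794, the smallest that 4 against 5 libraries can give. In Mcu-/- macrophages with zymosan it was 488, 489 and 523 CPM, above every WT library, a 2.31-fold difference (log2 1.21, SE 0.23, adjusted p = 0.000222). Untreated Mcu-/- replicates 1 to 3 had 0.776, 1.14 and 0.913 CPM and replicate 4 had 4.48 CPM. Zymosan in Mcu-/- macrophages thus gave a log2 fold change of 8.12 (SE 0.34, adjusted p = 1.1e-13) with replicate 4 and of 9.04 (SE 0.091) without it. Between the genotypes, the responses to zymosan differed by −0.16 (SE 0.52, adjusted p = 0.839) with all libraries and 0.76 (SE 0.29, adjusted p = 0.023) without replicate 4, so that its direction turned on that library.

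Ptgs1 (ENSMUSG00000047250, chromosome 2 from 36230426 to 36252272) moved the other way. COX-1 RNA was 33.5, 31.9, 32.5 and 33.4 CPM in untreated WT and 12.9, 14.6, 16.5, 14.5 and 13.2 CPM with zymosan. BAPTA-AM libraries had 15.7, 12.6, 11.8 and 13.8 CPM, in the range of WT zymosan libraries or just under it. The fall with zymosan was a log2 fold change of −1.20 (SE 0.25, adjusted p = 0.000305), and the BAPTA-AM difference was −0.092 (SE 0.26, adjusted p = 0.892). Mcu-/- libraries with zymosan had 5.3, 5.65 and 5.62 CPM, all below every WT library, a log2 difference of −1.37 (SE 0.31, adjusted p = 0.00104). Untreated Mcu-/- libraries had 31.6, 28.7 and 30.3 CPM in replicates 1 to 3 and 7.58 CPM in replicate 4, so the library labelled untreated replicate 4 was nearer to the stimulated Mcu-/- libraries than to the other untreated ones. All of them lay below every untreated WT library, replicates 1 to 3 narrowly. That difference did not pass in edgeR (log2 −0.42, SE 0.26, adjusted p = 0.418), and the exact permutation test gave p = 0.0286, the smallest possible. Between libraries, the ratio of Ptgs2 to Ptgs1 per kb of exon was 0.0123 to 0.0226 in untreated WT, 10.6 to 14.6 with zymosan, 7.42 to 12.3 with BAPTA-AM and zymosan, and 73.3 to 78.9 in Mcu-/- with zymosan. In untreated Mcu-/- it was 0.0208 to 0.0336 in replicates 1 to 3 and 0.502 in replicate 4. Ptgs1 shares 148 bases of exon with a gene model on the opposite strand, Gm43621, and the strand setting of the counting was not given in the sources used here.

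Ptges (ENSMUSG00000050737, chromosome 2 from 30889471 to 30929863) encodes the inducible microsomal PGE2 synthase. Its RNA was 1.62, 1.74, 1.16 and 1.23 CPM in untreated WT and 7.52, 7.03, 5.15, 6.74 and 6.6 CPM with zymosan. The rise was 4.55-fold (log2 2.19, SE 0.30, adjusted p = 2.74e-06). BAPTA-AM libraries had 7.79, 9.44, 8.58 and 9 CPM, all above WT with zymosan alone, where those of Ptgs2 were all below. The log2 difference with BAPTA-AM was 0.40 (SE 0.25, adjusted p = 0.362), and it passed without untreated Mcu-/- replicate 4 (adjusted p = 0.00323) and in the fit of the groups compared alone (adjusted p = 0.00434). Mcu-/- libraries with zymosan had 15.7, 17.1 and 16.3 CPM, 2.48-fold above WT without overlap (log2 1.31, SE 0.26, adjusted p = 0.000332). Untreated Mcu-/- replicates 1 to 3 had 1.26, 1.24 and 1.9 CPM and replicate 4 had 4.76 CPM. The difference of the zymosan responses was 0.66 (SE 0.43, adjusted p = 0.238), and 1.30 (SE 0.23, adjusted p = 7.97e-06) without replicate 4.

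Hpgds (ENSMUSG00000029919, chromosome 6 from 65117293 to 65144908), the PGD2 synthase of blood cells, rose in WT, and its response was smaller in Mcu-/- macrophages. It had 136, 133, 134 and 132 CPM in untreated WT and 266, 258, 264, 256 and 246 CPM with zymosan. The 4 BAPTA-AM libraries, at 248 to 258 CPM, lay inside that range. Zymosan raised it 1.93-fold in WT (log2 0.95, SE 0.045, adjusted p = 4.87e-13), and the BAPTA-AM difference was −0.029 (SE 0.044, adjusted p = 0.766). In Mcu-/- macrophages it was 130, 127, 139 and 115 CPM untreated and 155, 147 and 158 CPM with zymosan. The zymosan groups of the genotypes did not overlap, a log2 difference of −0.75 (SE 0.049, adjusted p = 9.36e-10). The rise in Mcu-/- was a log2 of 0.26 (SE 0.05, adjusted p = 0.000116), which turned to −0.26 with library totals in place of TMM, and the responses differed between genotypes by −0.69 (SE 0.067, adjusted p = 5.87e-07). Replicate 4 was the lowest untreated Mcu-/- library, and the difference of the responses was as large without it, at −0.73 (SE 0.049).

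Alox5ap (ENSMUSG00000060063, chromosome 5 from 149264767 to 149288153), encoding FLAP, was plentiful in every library. It had 284, 282, 272 and 274 CPM in untreated WT, 233, 228, 229, 235 and 238 CPM with zymosan, and 229, 234, 226 and 226 CPM with BAPTA-AM and zymosan. Zymosan lowered it without overlap (log2 −0.25, SE 0.062, adjusted p = 0.00134), and the BAPTA-AM libraries overlapped those without it (log2 −0.025, SE 0.063, adjusted p = 0.872). Mcu-/- libraries with zymosan had 371, 393 and 360 CPM, all above every WT library, a log2 difference of 0.69 (SE 0.067, adjusted p = 1.78e-07). Untreated Mcu-/- replicates 1 to 3 had 282, 288 and 284 CPM, in or just above the WT range, and replicate 4 had 372 CPM, inside the range of the stimulated Mcu-/- libraries. In Mcu-/- macrophages the zymosan change was 0.29 (SE 0.071, adjusted p = 0.00124) and turned to −0.23 with library totals in place of TMM. Those groups overlapped through replicate 4, and the exact permutation test gave p = 0.114. The responses of the genotypes differed by 0.54 (SE 0.094, adjusted p = 0.000341). Alox5ap shares 189 bases of exon with an antisense model, Gm19719.

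Alox5 (ENSMUSG00000025701, chromosome 6 from 116410077 to 116461178), the 5-lipoxygenase gene, was low in every library. It had 2, 1.82, 1.76 and 1.85 CPM in untreated WT and 2.51, 1.71, 1.68, 0.931 and 2.27 CPM with zymosan. With BAPTA-AM it had 1.97, 1.69, 1.46 and 2.02 CPM. These WT groups overlapped, and neither difference passed (log2 −0.033 with zymosan, adjusted p = 0.938; log2 −0.017 with BAPTA-AM, adjusted p = 0.986). In Mcu-/- libraries with zymosan it had 0.412, 0.113 and 0.199 CPM, from 7, 2 and 4 counts, below every WT library. The log2 difference from WT was −2.90 (SE 0.55, adjusted p = 0.000211). Untreated Mcu-/- replicates 1 to 3 had 1.92, 2.31 and 2.48 CPM, and replicate 4 had 0.397 CPM from 10 counts. The fall with zymosan in Mcu-/- was a log2 of −2.88 (SE 0.56, adjusted p = 0.000143), where the groups overlapped through replicate 4 and the exact permutation test gave p = 0.0857. The responses differed by −2.85 (SE 0.67, adjusted p = 0.00365). At 2 to 10 counts per library the size of these fitted values depends on the prior count, and Alox5 was not tested under a minimum of 10 counts in every library. The summed neutrophil markers, cells rich in 5-lipoxygenase, were at 0.497 to 0.765 CPM in the Mcu-/- zymosan libraries and 0.159 CPM in replicate 4, against 2 to 5.32 CPM in all others, and their part in the result was not tested. The partners of the first leukotriene step thus stood in opposite directions in Mcu-/- cells with zymosan, Alox5 lower and Alox5ap higher than in WT.

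Ptger4 (ENSMUSG00000039942, chromosome 15 from 5206661 to 5244187), encoding the EP4 receptor, rose in both genotypes. It had 16.7, 17.9, 16.8 and 14.9 CPM in untreated WT and 64.8, 72.3, 72.9, 57.3 and 66.3 CPM with zymosan, a 4.02-fold rise (log2 2.01, SE 0.13, adjusted p = 3.68e-11). BAPTA-AM libraries had 45.3, 46.8, 35.1 and 46.9 CPM, all below the lowest WT zymosan library. Among the members, this lower value passed in every alternative run except the minimum absolute log2 fold change of 1, which its size is under (log2 −0.61, SE 0.12, adjusted p = 0.00157, and 7.57e-10 to 0.00896 over the alternatives). In Mcu-/- macrophages it was 13.9, 14.8, 15.5 and 22.4 CPM untreated, the highest in replicate 4, and 74.3, 64.6 and 67.2 CPM with zymosan. The zymosan groups overlapped, with a log2 difference of 0.042 (SE 0.13, adjusted p = 0.787), and the responses differed by 0.04 (SE 0.18, adjusted p = 0.885). Ptger4 shares 82 bases of exon with Ttc33 and 1015 bases with the pseudogene Gm15937, both on the other strand.

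Ptger2 (ENSMUSG00000037759, chromosome 14 from 44988195 to 45003820), encoding EP2, was low in WT. It had 4.18, 4.16, 4.54 and 3.48 CPM untreated, 6.78, 5.12, 6.17, 4.76 and 5.21 CPM with zymosan, and 4.27, 4.37, 4.32 and 4.9 CPM with BAPTA-AM and zymosan. All WT zymosan libraries lay above all untreated ones, with a log2 difference of 0.45 (SE 0.33, adjusted p = 0.239) that passed without untreated Mcu-/- replicate 4 (adjusted p = 0.000457) and in the fit of the 2 groups alone (adjusted p = 0.00155). The BAPTA-AM libraries overlapped those without it, at a log2 of −0.33 (SE 0.34, adjusted p = 0.624) that also passed without replicate 4 (adjusted p = 0.0256). Mcu-/- libraries with zymosan had 10.5, 10.3 and 10.1 CPM, above every WT library (log2 0.88, SE 0.34, adjusted p = 0.0314). That call was lost without any 1 of WT zymosan replicates 2, 4 and 5 or of the 3 Mcu-/- zymosan libraries, with an adjusted p of at most 0.0696, and in the fit with the replicate number as a block, at 0.0831. Untreated Mcu-/- libraries had 3.77, 3.98 and 3.72 CPM in replicates 1 to 3 and 15.1 CPM in replicate 4, the highest value of the 20 libraries. Ptger2 shares 144 and 246 bases of exon with Gm49364 and Gm17173 on the other strand.

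Ptgir (ENSMUSG00000043017, chromosome 7 from 16906490 to 16910905), the prostacyclin receptor gene, fell with zymosan in WT, and no fall was called in Mcu-/- macrophages. It had 7.46, 8.82, 8.39 and 5.67 CPM in untreated WT, 3.42, 2.79, 3.32, 3.07 and 2.94 CPM with zymosan, and 2.03, 2.46, 3.3 and 2.83 CPM with BAPTA-AM and zymosan. The fall was a log2 of −1.29 (SE 0.22, adjusted p = 2.94e-05), and BAPTA-AM left the libraries overlapping (log2 −0.23, SE 0.24, adjusted p = 0.634). In Mcu-/- macrophages it was 9.5, 7.86, 7.3 and 17.1 CPM untreated and 11.8, 10.6 and 11.3 CPM with zymosan. Every Mcu-/- zymosan library was above every WT zymosan library, 3.62-fold on average (log2 1.85, SE 0.23, adjusted p = 2.64e-06). Without replicate 4, whose 17.1 CPM was the highest of all libraries, zymosan raised it in Mcu-/- (log2 0.45, SE 0.12, adjusted p = 0.000877), and with it the change was 0.11 (SE 0.22, adjusted p = 0.661). With library totals in place of TMM that change was −0.40 (adjusted p = 0.0862), where the median of all genes moved from −0.062 to −0.58. Library totals were not run with replicate 4 left out. The responses of the genotypes differed by 1.40 (SE 0.31, adjusted p = 0.00232) with all libraries and by 1.76 (SE 0.18) without that one.

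**Figure D2:**
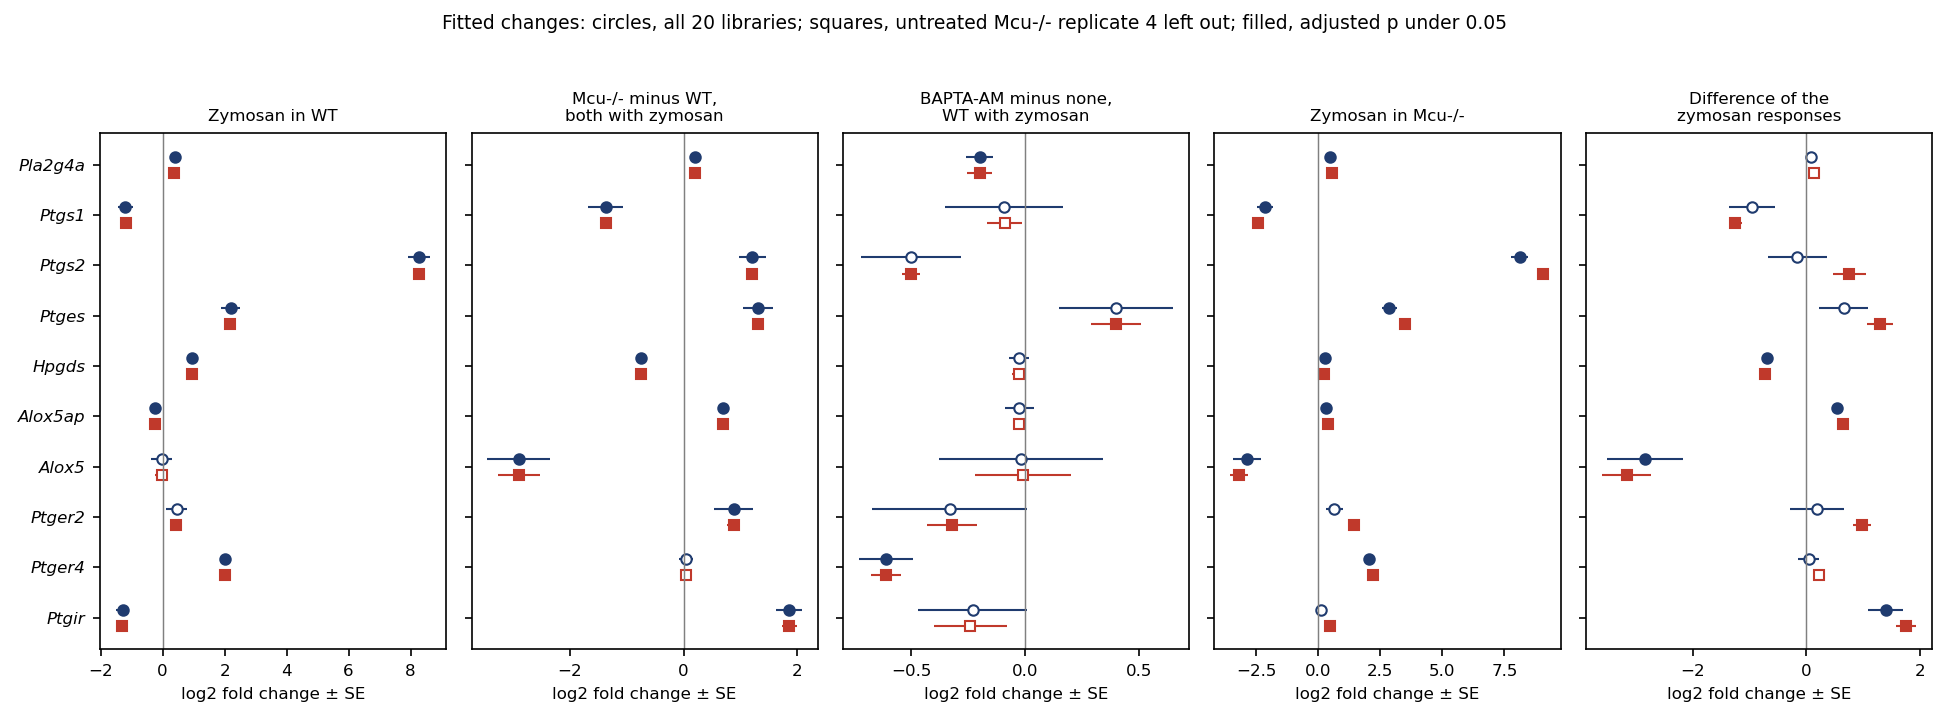
Log2 fold changes of the 10 genes with their SE in 5 comparisons, each panel on its own scale, from all 20 libraries (circles) and without untreated Mcu-/- replicate 4 (squares), filled where the adjusted p was under 0.05. Leaving out that library filled 3 more symbols in the BAPTA-AM panel and 4 in the panel of the difference of the zymosan responses, where Ptgs2 went from −0.16 to 0.76.

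Zymosan in Mcu-/- macrophages raised 6 members and lowered 2, where 34.3% of all genes rose and 39.4% fell. The rises were those of WT with Alox5ap in addition, those of Pla2g4a, Hpgds and Alox5ap turning negative with library totals, and the falls were Ptgs1 and Alox5. By the exact permutation test p was 0.0286, the smallest possible, for Ptgs2, Ptges, Pla2g4a and Ptger4. It was 0.0571 for Ptgs1 and Hpgds, 0.0857 for Alox5 and 0.114 for Alox5ap, so these 4 calls did not pass 0.05 by that test. Without replicate 4 the counts were 8 and 2, with 39.2% and 42.4% of all genes called. The zymosan responses differed between the genotypes for 4 members, Alox5ap and Ptgir with a higher value in Mcu-/- and Alox5 and Hpgds with a lower one, beside 15.2% and 20% of all genes. Without replicate 4 they differed for 8, since Ptgs2, Ptges and Ptger2 joined the first and Ptgs1 the second, beside 31.0% and 29.3% of all genes. In WT the count of members raised by zymosan was 6 without that library, Ptger2 being the addition, and 3 fell, beside 37.2% and 41.3% of all genes. With BAPTA-AM it was 1 higher (Ptges) and 4 lower (Ptgs2, Pla2g4a, Ptger2 and Ptger4), beside 15.3% and 16.5%. These comparisons share the zymosan or untreated libraries of 1 genotype, so their counts are not independent of each other. The median log2 fold change of the 10 genes was 0.42 with zymosan in WT, 0.44 for Mcu-/- against WT with zymosan and −0.15 with BAPTA-AM, where the medians of all 11707 genes were −0.044, 0.016 and 0.00049.

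Untreated Mcu-/- replicate 4 differed from replicates 1 to 3 in the same direction as Mcu-/- from WT under zymosan for all 10 genes. The same count over all tested genes was not made, so this is not shown to be particular to these 10. For Ptger4 the difference under zymosan was 0.042 (SE 0.13). Its sign turned with library totals (−0.0098) and without WT zymosan replicate 4 or Mcu-/- zymosan replicate 3. The log2 difference of untreated replicate 4 from the mean of replicates 1 to 3 was 2.25 for Ptgs2, 1.70 for Ptges, 1.98 for Ptger2 and 1.05 for Ptgir. It was −1.99 for Ptgs1 and −2.50 for Alox5. The 7 macrophage markers showed the same, Cd68 with 971 CPM in replicate 4, 251 to 259 in replicates 1 to 3 and 1142 to 1175 in Mcu-/- with zymosan, and Itgam with 239, 736 to 779 and 271 to 286 CPM. Replicates 1 to 3 themselves were near untreated WT, with a log2 difference from its mean between −0.17 for Ptger4 and 0.46 for Ptgs2. Set against replicate 4 alone, the Mcu-/- zymosan libraries had on average 111-fold more Ptgs2, 3.43-fold more Ptges, 3.07-fold more Ptger4 and 1.33-fold more Hpgds. Alox5ap was at 1.01-fold, Ptgs1 at 0.729-fold, Ptger2 at 0.682-fold and Ptgir at 0.659-fold of that library. With 1 library on one side these ratios have no test. The labels give no culture or sequencing batch, and whether the Mcu-/- zymosan libraries share with replicate 4 something other than genotype was not tested.

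**Figure D3:**
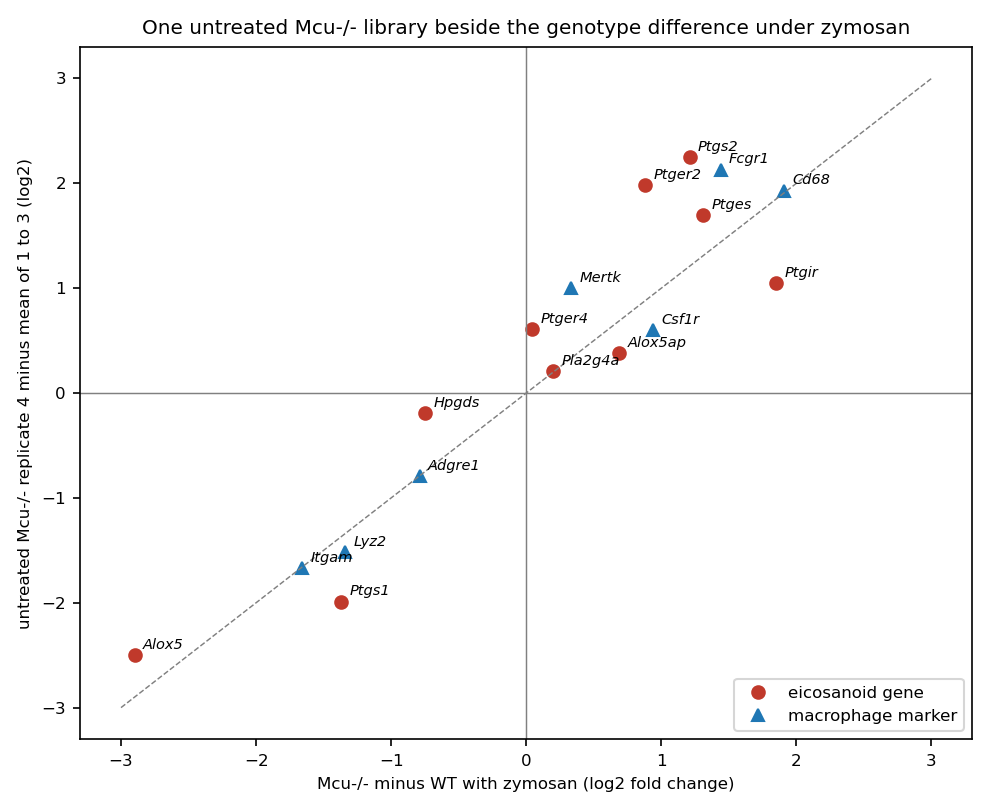
Log2 difference of untreated Mcu-/- replicate 4 from the mean of replicates 1 to 3 (vertical) against the log2 fold change of Mcu-/- from WT, both with zymosan (horizontal), for the 10 eicosanoid genes (circles) and 7 macrophage markers (triangles); the dashed line is equality. All 17 points lie in the quadrants of equal sign, from Alox5 at −2.90 and −2.50 to Cd68 at 1.91 and 1.93. The share of equal sign was not counted over all genes.

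Across genes, levels can be set side by side only per length, as CPM per kb of annotated exon. In untreated WT the order was Alox5ap at 196, Hpgds at 20.8, Ptgs1 at 8.46, Pla2g4a at 3.84, Ptger4 at 2.49, Ptgir at 2.27, Ptger2 at 0.787, Alox5 at 0.453, Ptges at 0.366 and Ptgs2 at 0.15 CPM per kb. Ptgs2 was thus the lowest of the 10 at rest, and at 47.2 CPM per kb it was second to Alox5ap (164) in WT with zymosan, just above Hpgds (40.2). In Mcu-/- macrophages with zymosan it was 109 CPM per kb beside 264 for Alox5ap, 23.8 for Hpgds, 10.3 for Ptger4 and 0.0588 for Alox5. Over the 5 groups, every pair of neighbours in the order of a gene's mean level overlapped for Alox5 and Ptger2, and 3 of 4 pairs for Alox5ap, Pla2g4a and Ptgir. For Alox5 and Ptger2 the overlap of the Mcu-/- groups came from untreated replicate 4. Replicates 1 to 3 had 1.92 to 2.48 CPM of Alox5, against 0.113 to 0.412 CPM with zymosan, and 3.72 to 3.98 CPM of Ptger2, against 10.1 to 10.5 CPM. Overlap of neighbouring groups was not counted over all genes. For Ptgs2 and Ptges the 3 zymosan groups were apart from each other and from the untreated ones. For Ptgs2 the order among them was BAPTA-AM, WT and Mcu-/-, and for Ptges it was WT, BAPTA-AM and Mcu-/-.

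Around these 10 genes, 63 other names of the pathway were listed by role, of which 34 were tested. Another 27 were under the filter, with a mean of at most 0.242 CPM, 1 had a repeated symbol and 1 was not matched to an entry (Prxl2b, a newer symbol of Fam213b). Among those under the filter were the LTB4 receptors Ltb4r1 and Ltb4r2, the PGD2 receptors Ptgdr and Ptgdr2, the thromboxane receptor Tbxa2r, the prostacyclin synthase Ptgis and the lipoxygenase Alox15. With zymosan in WT 13 of the 34 rose and 11 fell, Mcu-/- against WT with zymosan gave 14 higher and 11 lower, and BAPTA-AM 0 higher and 3 lower. The background shares of these comparisons are those given above. The median log2 fold changes of the 34 were 0.16, 0.099 and −0.082. Up to 4 genes of each role, those of highest mean level, are described here. Of these, 16 were called in Mcu-/- against WT with zymosan. For 14 of the 16, untreated Mcu-/- replicate 4 lay outside replicates 1 to 3 on the same side, a share not counted over all genes. The exceptions were Ptges3, inside that range, and Lta4h, at 38.2 CPM against 34.6 to 35.9 and so on the other side from its lower value in Mcu-/- with zymosan.

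Of arachidonate release and reacylation, Anxa1, an inhibitor of phospholipase A2, rose with zymosan in WT (log2 1.37, SE 0.18, adjusted p = 1.63e-06) and stood higher in the Mcu-/- zymosan group than in the WT one (1.22, SE 0.19, adjusted p = 2.62e-05). Untreated Mcu-/- replicate 4 had 473 CPM of Anxa1, replicates 1 to 3 had 202 to 214 CPM and the Mcu-/- zymosan libraries 1079 to 1147 CPM. Acsl4, which loads arachidonate onto coenzyme A, rose with zymosan (0.78) and was lower in Mcu-/- (−0.30) and with BAPTA-AM (−0.18, SE 0.048, adjusted p = 0.0169), the last call being lost without any 1 of BAPTA-AM replicates 1, 2 and 3 and with library totals. The lysosomal phospholipase Pla2g15 fell (−1.01) and was higher in Mcu-/- (0.86). Pla2g7, the platelet-activating factor acetylhydrolase, rose with zymosan (0.70, SE 0.058, adjusted p = 2.58e-09).

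Among the prostanoid synthases Tbxas1, the thromboxane synthase, fell with zymosan in WT (log2 −0.74, SE 0.17, adjusted p = 0.00087) and was 3.73-fold higher in the Mcu-/- zymosan group than in the WT one (1.90, SE 0.18, adjusted p = 1.46e-07), at 138 against 37 CPM on average. Tbxas1 was at 141 CPM in untreated Mcu-/- replicate 4, inside the 131 to 142 CPM of the Mcu-/- zymosan libraries, and at 63.4 to 67.8 CPM in replicates 1 to 3. Ptges3, the cytosolic PGE2 synthase and HSP90 cochaperone p23, rose with zymosan (0.86, SE 0.033, adjusted p = 2.29e-14) and was slightly lower in Mcu-/- (−0.099, adjusted p = 0.0227), a call lost without Mcu-/- zymosan replicate 3 (0.0941). Akr1b3, an aldose reductase with PGF synthase activity, rose by 0.20 on the log2 scale with TMM and stood at −0.30 with library totals, and was higher in Mcu-/- (0.12, adjusted p = 0.014), a call lost without Mcu-/- zymosan replicate 4 (0.0808). Fam213b, also a PGF synthase, was lower in Mcu-/- (−0.43, adjusted p = 0.00352). Of the prostanoid receptors outside the 10, Ptger1 was tested and fell with zymosan in WT (−1.20, SE 0.20, adjusted p = 2.02e-05). The exporter Abcc4, which carries PGE2 out of cells, was lower with zymosan (−0.50), lower again in Mcu-/- (−0.64) and lower with BAPTA-AM (−0.59, SE 0.12, adjusted p = 0.00326), so that it moved the same way in both comparisons with WT zymosan. Untreated Mcu-/- replicate 4 had 36.4 CPM of Abcc4 against 62.4 to 68.9 CPM in replicates 1 to 3 and 29.3 to 31.4 CPM in Mcu-/- with zymosan. Of the prostaglandin reductases, which break prostaglandins down, Ptgr1 rose (0.36 with TMM, −0.14 with library totals) and was higher in Mcu-/- (0.20, adjusted p = 0.00715), and Ptgr2 fell (−0.44) with zymosan.

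Of the leukotriene genes Lta4h, which makes LTB4, rose with zymosan in WT (log2 0.36 with TMM and −0.14 with library totals) and was lower in Mcu-/- (−0.38, SE 0.055, adjusted p = 1.59e-05). Abcc1, the LTC4 exporter, rose (0.34 with TMM, −0.15 with library totals) and was higher in Mcu-/- (0.52, SE 0.065, adjusted p = 3.49e-06), as was the glutathione transferase Mgst3 (0.85, SE 0.14, adjusted p = 6.34e-05). Cotl1, which binds 5-lipoxygenase, was lower with zymosan (−0.18, adjusted p = 0.0201), a call lost under DESeq2 (adjusted p = 0.0602) and without WT untreated replicate 2 or 3, and lower in Mcu-/- (−0.33). The cysteinyl leukotriene receptor Cysltr1 fell with zymosan (−0.19) and was higher in Mcu-/- (0.62, SE 0.067, adjusted p = 5.19e-07), and Cysltr2 rose with zymosan (1.78, SE 0.17, adjusted p = 2.48e-08). Fpr2, a receptor for lipoxin A4 and formyl peptides, rose with zymosan (1.23) and was lower in Mcu-/- (−0.45, adjusted p = 0.0294), a call lost without any 1 of the 3 Mcu-/- zymosan libraries. Fpr2 was at 45.7 CPM in untreated Mcu-/- replicate 4 and at 104 to 109 CPM in replicates 1 to 3. Cmklr1, a receptor for chemerin and resolvin E1, fell with zymosan (−0.56) and fell further with BAPTA-AM (−0.79, SE 0.081, adjusted p = 2.83e-06), from 14.6 to 8.45 CPM on average. The epoxide hydrolase Ephx1 was higher with zymosan in WT (0.46 with TMM, −0.027 with library totals) and lower in Mcu-/- (−1.04, SE 0.17, adjusted p = 4.39e-05). The comparisons described for these genes are zymosan in WT, Mcu-/- against WT with zymosan, and BAPTA-AM in WT with zymosan. In these, the named genes not mentioned did not pass, with log2 fold changes from −0.38 to 0.46. In the fit of all libraries, zymosan in Mcu-/- macrophages raised 12 of the 22 genes chosen by level and lowered 8. Of all genes 34.3% rose and 39.4% fell there. Their zymosan responses differed between the genotypes for 4 with a higher and 5 with a lower value in Mcu-/-. Without zymosan, 0 of the 22 were called between the genotypes, with log2 differences from −0.31 to 0.62. Among all genes 0.128% were higher and 0.222% lower.

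**Figure D4:**
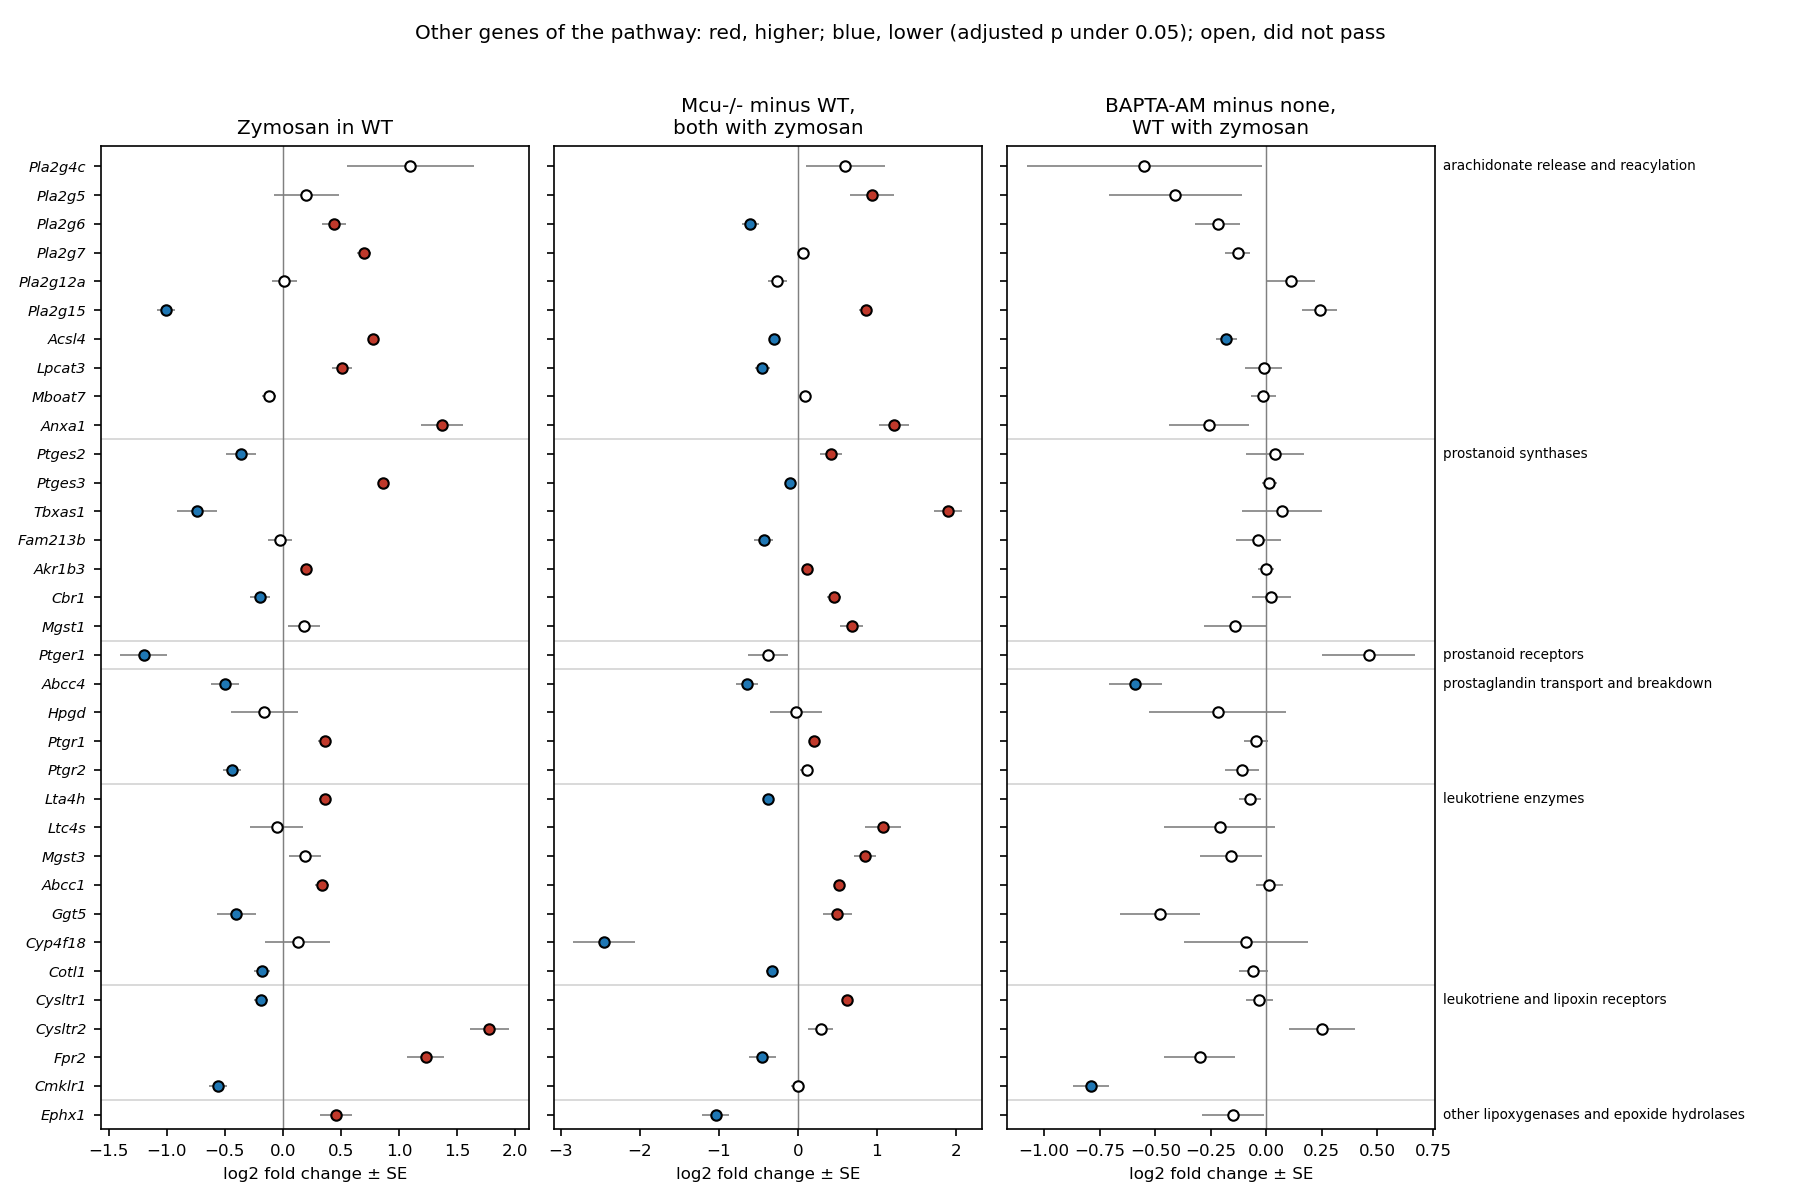
Log2 fold changes with SE of the 34 tested pathway genes outside the 10, grouped by role, for zymosan in WT, Mcu-/- against WT with zymosan and BAPTA-AM in WT with zymosan, each panel on its own scale. Tbxas1 went from −0.74 in the first panel to 1.90 in the second, and in the third only Acsl4, Abcc4 and Cmklr1 are filled.

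Over the 20 libraries, the genes whose log2(CPM + 1) followed that of a member most closely, among the 8914 tested genes averaging 5 CPM or more, were Cybb, Klf6 and Plek for Ptgs2 (Pearson r of 0.999, 0.999 and 0.998) and Rnf19b, Procr and Usp47 for Ptges (0.991, 0.989 and 0.987). For Ptgs1 they were Camkk1, Fgf11 and Traf3ip3 (0.994, 0.99 and 0.99). For Alox5, over 8915 genes, they were Oxct1, Miip and H2afv (0.948, 0.946 and 0.944). The libraries fall into groups by treatment, so these values describe the group pattern and carry no p.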

How the data were processed

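RNA-seq libraries of macrophages, 20 in all, were put into 5 groups by the labels. The authors trimmed reads with cutadapt, mapped them with STAR to mm10 and counted them per gene with HTSeq; the deposited counts are whole, unnormalized and keyed by symbol, and versions, annotation and strand setting were not given in the sources used here. Symbols that occur more than once (25) were kept as separate entries. Counts of all 20 libraries, 14.4 to 24 M each, were filtered (filterByExpr), scaled by TMM and fitted by group with edgeR 4.0.16 (quasi-likelihood test, R 4.3.3), with Benjamini-Hochberg adjustment over all genes tested and a threshold of 0.05, after the scripts had been tested on simulated data. Standard errors come from that fit and include the spread between libraries. For the members, mean log2(CPM + 1) was tested by exact permutation (two-sided) as well. The labels call the replicates biological but do not say that they came from separate mice, so p-values measure the spread between these samples. Exon lengths and overlaps came from GENCODE M21, promoters from RefSeq.

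The members and lists were chosen with earlier results of these data known. The text names all 10 members; per role up to 4 pathway genes of highest mean CPM; the 3 genes most like Ptgs2, Ptges, Ptgs1 and Alox5; and Mcu. Cell type markers were listed for macrophages, neutrophils, mast cells, eosinophils and basophils, T and B cells, dendritic cells, megakaryocytes and stroma. Alternatives were DESeq2 1.42.0 (Wald test or size factors), library totals, 2 other filters, robust dispersion, the replicate number as a block, the compared groups alone, a minimum fold change and leaving out each library. By the column numbers, which for Mcu-/- with zymosan differ from those of the labels, same-numbered libraries of different groups had deviations correlated between −0.117 and 0.083, so the numbers were not taken to pair them.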

Additional observations from a re-analysis of the deposited data

Results flagged for a closer look

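In 6 of 40 groups of 4 or 5 libraries, 1 library stood further from the rest than Dixon's 95% critical value allows; chance flags about 1 in 20 groups. Of these, 4 were untreated Mcu-/- replicate 4, with 7.58 CPM of Ptgs1 (28.7 to 31.6 in the other libraries), 4.48 CPM of Ptgs2 (0.776 to 1.14), 372 CPM of Alox5ap (282 to 288) and 15.1 CPM of Ptger2 (3.72 to 3.98). The others were in the BAPTA-AM group, replicate 4 with 4.9 CPM of Ptger2 (4.27 to 4.37) and replicate 3 with 35.1 CPM of Ptger4 (45.3 to 46.9). The zymosan response differed between the genotypes, by edgeR's test of the interaction, for Alox5 (log2 difference −2.85), Alox5ap (0.54), Hpgds (−0.69) and Ptgir (1.40).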

How the results depend on the processing

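Over 1674 pairs of a member's fold change and an alternative, 1601 kept direction and side of the threshold, 19 lost the call, 14 gained it and 40 changed sign; for the named pathway genes, whose alternatives were chosen after seeing the data, 1043 of 1064 were kept, 16 lost the call and 5 changed sign. The pairs include fits without a library of a group that is not compared, which reach a comparison only through filter, scaling and shared spread. The kept counts are therefore no measure of how stable a single call is. Where no cause is given it was not tested. With library totals the median of all genes moved from −0.044 to −0.54 with zymosan in WT and from −0.062 to −0.58 in Mcu-/-. There the zymosan changes became −0.11 (Pla2g4a), −0.04 (Ptger2), −0.30 (Akr1b3), −0.14 (Ptgr1), −0.15 (Abcc1), −0.14 (Lta4h) and −0.027 (Ephx1) in WT, and −0.047 (Pla2g4a), −0.23 (Alox5ap), −0.26 (Hpgds) and −0.40 (Ptgir) in Mcu-/-, with 3 members higher and 4 lower there. With BAPTA-AM they gave 0.044 (Alox5), 0.036 (Alox5ap) and 0.033 (Hpgds) and 1 member lower, and Ptger4 in Mcu-/- against WT became −0.0098 with zymosan and −0.025 untreated.

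A minimum log2 fold change of 1 left 3 members higher with zymosan in WT, 3 in Mcu-/- against WT, 3 with zymosan in Mcu-/-, 0 lower with BAPTA-AM, and 1 higher and 1 lower for the difference of the responses. Shares of all genes were not counted for this minimum, nor for library totals, the filters, the block or the compared groups alone. With BAPTA-AM 1 member was lower under the filter of 1 count, and 1 was higher and 4 lower when the compared groups were fitted alone. Under 10 counts in every library, where Alox5 is not tested, 1 member fell with zymosan in Mcu-/- and 1 had the lower response. DESeq2 turned Alox5 with zymosan in WT to 0.0065 and its size factors to 0.0051, and untreated Ptger4 to −0.0026 and −0.0037; that value was −0.0058 under the filter of 10 counts and −0.0029 in the groups alone.

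With the column's replicate number as a block, which does not pair these samples, 1 member was lower with BAPTA-AM, Alox5 there was 0.11, untreated Ptger4 was −0.0011, and the calls of Pla2g4a with BAPTA-AM (adjusted p = 0.0659), Ptger2 (0.0831) and Fpr2 (0.0699) in Mcu-/- against WT were lost.

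Leaving out each library in turn, members with BAPTA-AM ranged from 0 to 1 higher and 1 to 4 lower, and those with the higher response in Mcu-/- from 2 to 5, the last value of each being without untreated Mcu-/- replicate 4. Log2 values that changed sign ranged from −0.17 to 0.13 (Alox5, zymosan in WT), −0.18 to 0.12 (Alox5, BAPTA-AM), −0.26 to 0.27 (Alox5, untreated), −0.11 to 0.89 (Ptger2, untreated), −0.18 to 0.079 (Ptger4, untreated), −0.018 to 0.084 (Ptger4, Mcu-/- against WT with zymosan) and −0.027 to 0.45 (Ptgir, zymosan in Mcu-/-). For the difference of the responses they ranged from −0.41 to 0.76 (Ptgs2), −0.0085 to 0.98 (Ptger2) and −0.037 to 0.22 (Ptger4). Depth limits Alox5 in Mcu-/- with zymosan and Ptgs2 untreated, each resting on few counts.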
